A study of Mus musculus with 6 samples.

Results

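The genes described encode 10 enzymes of the digestion of milk and other food, most of them at the cell surface. They are the disaccharidases Lct, Sis, Treh and Mgam, the milk-clotting protease Cym, the peptidases Mme, Anpep, Enpep and Dpp4, and the alkaline phosphatase Alpi. They were chosen by name, each name had 1 row, and they are 10 of the 54532 genes in each file. Transcripts were counted in intestine of newborn C57BL/6 mice, an inbred strain, after 5 days of treatment. The NECA group (3 libraries) was treated with N-ethylcarboxamidoadenosine, an adenosine analogue that activates several adenosine receptors, and the DMSO group (3 libraries) with the solvent. The labels name no genotype other than the strain, and the sources used here do not give the segment of bowel, the dose or the route. Nor do they tell whether each library is a separate animal, so p-values measure the spread between libraries, part of which may be technical.

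A suckling mouse lives on milk, whose main sugar is lactose and whose main protein is casein. The mature enterocyte carries its digestive enzymes on the brush border, a carpet of microvilli facing the lumen: disaccharidases split sugars into monosaccharides, and peptidases trim peptides to amino acids and short peptides that can be taken up. Lactase is high before weaning, and sucrase-isomaltase and trehalase increase at weaning. The set also varies along the length of the bowel, with lactase highest in the jejunum. In a piece of whole bowel, fewer cells of a type and less RNA per cell cannot be told apart.

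The libraries held 15531996 to 18065078 counts, and the 10 genes together took 0.537% to 0.797% of them. NECA replicate 2 stood apart: its median correlation with the others was 0.929 across 15847 genes (genes are not independent replicates), and theirs were 0.957 to 0.977. The libraries also differed in genes that mark position along the bowel. A position score (the mean log2 level of 9 proximal genes such as Pdx1 and Gata4 minus that of 8 distal genes such as Fabp6 and Slc10a2, higher being more proximal) was 4.63, 5.08 and 0.92 in DMSO replicates 1 to 3 and 3.22, -4.42 and 0.34 in NECA replicates 1 to 3. DMSO replicate 3 thus lay near NECA replicate 3, and NECA replicate 2 was the most distal. The mean log2 level of 10 epithelial genes, among them Vil1 and Epcam, was 9.20, 9.05 and 9.48 in DMSO and 9.48, 9.77 and 9.48 in NECA. The summed level of 10 smooth muscle genes ran from 3172 to 7703 CPM (counts scaled to library size, TMM-normalised) in DMSO and from 3327 to 3728 CPM in NECA, the highest value being that of DMSO replicate 2.

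All 10 genes passed the filter on low counts. With the quasi-likelihood test of edgeR, adjusted by Benjamini-Hochberg over 15847 genes, 0 of the 10 passed the threshold of 0.05, the smallest adjusted p among them being 0.738. Over all genes 0 were called (0%). At an unadjusted p under 0.05 there was 1 member, Mgam, higher in NECA, where 868 genes in all (5.48%) reached that level. DESeq2 called 9 of 27044 genes (0.0333%) and 0 of the 10. In the edgeR fit 5 members were higher and 5 lower in NECA, with a median log2 fold change of -0.13, beside -0.01 over all genes tested. The groups did not overlap in 1 member, Cym, or 1 of 10, where they did not overlap in 13.7% of all genes tested. That share is near the background and is no result about the enzymes.

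In level per length (FPKM, fragments scaled by length and library size, as deposited), Alpi was the most abundant of the 10 genes in DMSO at 1152 ± 74.7 (SD, n = 3), followed by Lct at 361 ± 51.2, Anpep at 288 ± 83.9 and Cym at 158 ± 62.4. Then came Mme at 43.0 ± 18.1, Enpep at 39.8 ± 40.8, Dpp4 at 26.1 ± 7.79, Treh at 18.4 ± 9.50 and Mgam at 17.6 ± 6.46. Sis was last at 1.20 ± 0.560. Among neighbours in that order, the DMSO libraries were separate between Alpi and Lct, between Cym and Mme and between Mgam and Sis, and overlapped in the other pairs. In NECA the order began with Alpi at 864 ± 407, Anpep at 381 ± 19.6 and Lct at 228 ± 185. In NECA replicate 2 taken alone, Anpep ranked 1, Alpi 2, Enpep 3 and Mgam 4, and Lct ranked 6.

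**Figure D1:**
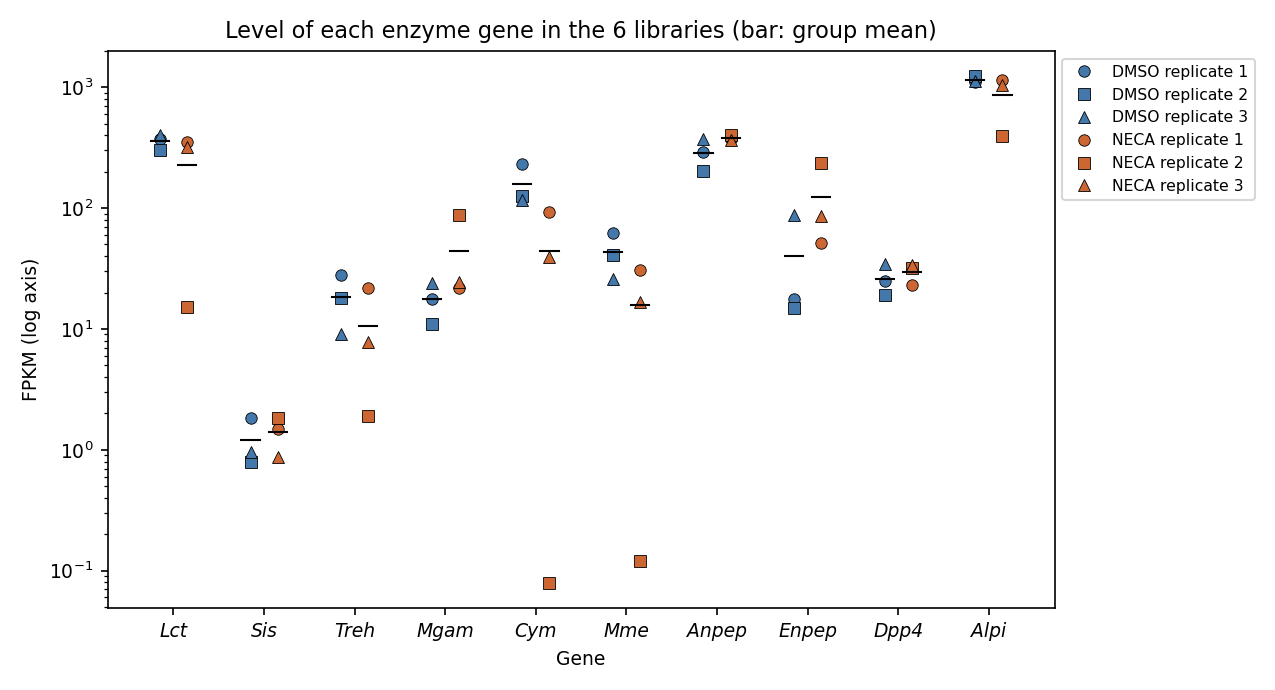
FPKM (log axis) of each of the 10 genes in every library, with DMSO libraries in blue, NECA libraries in orange, a marker shape per replicate number and a bar at the group mean. In Lct, Treh, Cym, Mme and Alpi the lowest point is NECA replicate 2, and in Mgam and Enpep the highest point is that library.

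NECA replicate 2 lay below the other 5 libraries in 5 members (Lct, Treh, Cym, Mme and Alpi), beside 27.9% of all genes tested, and above them in 4 (Sis, Mgam, Anpep and Enpep), beside 30.1%, on the CPM scale. For Sis this was a near tie, at 13.96 CPM against 13.84 CPM in DMSO replicate 1. NECA replicate 2 lay outside the range of the others in 9 of 10 members, Sis included, beside 58.0% of all genes tested. Fold changes of the members and of the other genes named are therefore given with that library and without it.

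The 4 disaccharidases had different patterns. Lct encodes lactase, the brush-border enzyme that splits lactose. Its gene lies on chromosome 1, 128284756 to 128328318, minus strand (GRCm38), and has 17 exons. Lct had 375, 304 and 403 FPKM in DMSO and 353, 15.2 and 317 FPKM in NECA. NECA replicates 1 and 3 lay inside the DMSO range, and NECA replicate 2, with 1969 counts, was the single low library. Its TMM-normalised CPM was 23.0 times below the mean of the other 5. The log2 fold change of NECA over DMSO was -0.68 (SE 0.87, edgeR adjusted p = 0.818). Without NECA replicate 2 it was -0.12 (SE 0.18, edgeR adjusted p = 0.920), and across those 5 libraries the highest Lct level was 1.31 times the lowest. Without NECA replicate 1 it was -1.13 (SE 1.02).

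Mgam encodes maltase-glucoamylase, which releases glucose from maltose and from the ends of starch chains. It lies on chromosome 6, 40628831 to 40769123, plus strand, with 48 exons in its longest transcript. Its level was 17.8, 11.1 and 24.0 FPKM over the DMSO libraries and 21.7, 87.2 and 24.5 FPKM over the NECA libraries. The groups overlapped, since NECA replicate 1 lay below DMSO replicate 3, and NECA replicate 2 was 4.42 times the mean of the other 5 libraries (CPM). The log2 fold change was 1.33 (SE 0.57, edgeR adjusted p = 0.738), and 0.37 (SE 0.28, edgeR adjusted p = 0.855) without NECA replicate 2. Mgam2-ps, an adjacent relative with its own row, had 23.5, 10.1 and 22.6 FPKM in DMSO and 16.8, 15.2 and 18.4 FPKM in NECA and was not high in NECA replicate 2. The sources used here do not say how reads matching both genes were assigned, so both values are uncertain to that extent.

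Sis encodes sucrase-isomaltase, the main sucrose-splitting enzyme of the weaned gut. The gene is on chromosome 3, 72888557 to 72967863, minus strand, with 48 exons. Sis had the lowest mean of the 10 genes in both groups. It was at 1.84, 0.799 and 0.955 FPKM in the DMSO libraries (248, 91 and 115 counts) and 1.48, 1.85 and 0.866 FPKM in the NECA libraries (170, 280 and 113 counts). The groups overlapped throughout, and the log2 fold change was 0.21 (SE 0.39, edgeR adjusted p = 0.877), or -0.05 (SE 0.40) without NECA replicate 2. Within a library, Lct FPKM was 204, 380 and 422 times that of Sis in DMSO and 238, 8.19 and 366 times in NECA. On the log2 scale of counts the ratio of Lct to Sis was 8.10 ± 0.563 in DMSO and 6.26 ± 3.0 in NECA (SD, n = 3 per group; exact permutation test, two-sided, p = 0.5, adjusted p = 0.611 over the 11 tests of its family). With 3 libraries against 3 that test cannot go below 0.1.

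Treh encodes trehalase, which splits the disaccharide of fungi and insects. It lies on chromosome 9, 44673233 to 44686305, plus strand, with up to 15 exons, and overlaps Phldb1 on the opposite strand. Treh had 28.0, 18.0 and 9.05 FPKM in the DMSO group against 21.8, 1.90 and 7.79 FPKM in the NECA group. The low values were those of NECA replicate 2, NECA replicate 3 and DMSO replicate 3, which were also the 3 libraries with the lowest position scores. Its log2 fold change of NECA over DMSO was -0.83 (SE 0.76, edgeR adjusted p = 0.761), and -0.33 (SE 0.52) without NECA replicate 2. It was -0.39 (SE 0.85) without DMSO replicate 1 and -1.94 (SE 0.68) without NECA replicate 1. Phldb1 itself had 331 to 478 counts in every library, or 2.75 to 3.66 FPKM. Its lowest FPKM values were those of NECA replicate 3 (2.75) and DMSO replicate 3 (2.93), where Treh was low as well. In NECA replicate 2, where Treh was lowest, Phldb1 was at 3.28 FPKM and was not low. The part of Phldb1 reads in the Treh level was not tested.

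**Figure D2:**
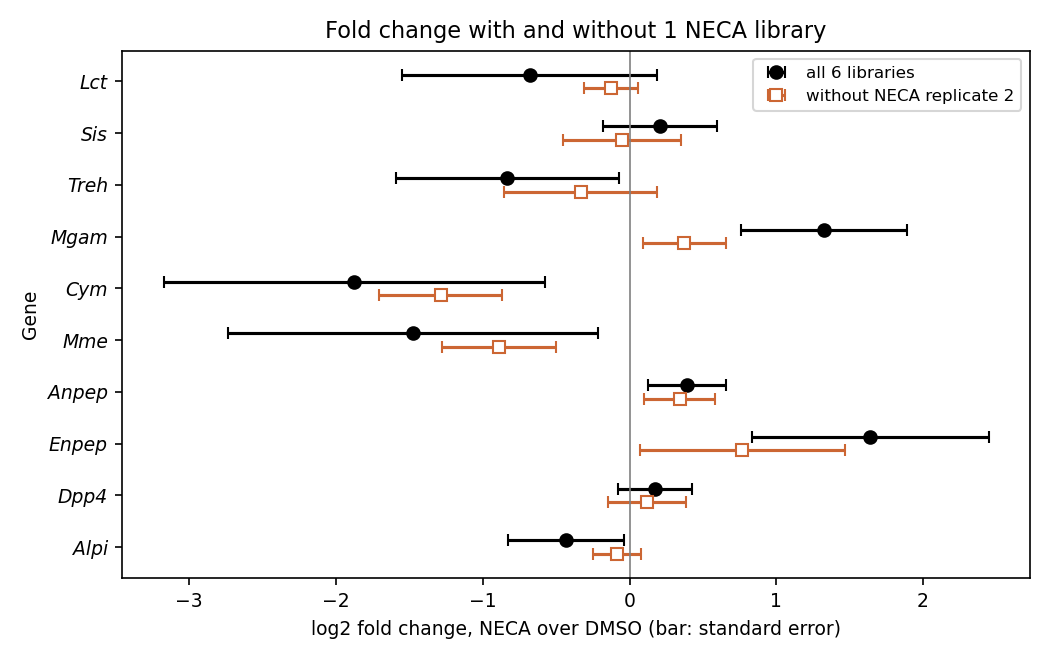
Log2 fold change of NECA over DMSO for each gene (horizontal axis) with its standard error, from all 6 libraries (filled circles) and without NECA replicate 2 (open squares). The fold of Mgam is 1.33 with all libraries and 0.37 without that one, whereas that of Anpep is 0.39 and 0.34.

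Cym encodes chymosin, an acid protease that clots milk by cutting casein and is best known from the stomach of the young. The gene is on chromosome 3, 107211293 to 107221732, minus strand, and has 9 exons. Cym had 229.6, 126 and 117 FPKM in DMSO and 92.1, 0.0798 and 39.1 FPKM in NECA. All 3 NECA libraries lay below all 3 DMSO libraries, the only member of which this was so. NECA over DMSO gave a log2 fold change of -1.88 (SE 1.30, edgeR adjusted p = 0.738) and, without NECA replicate 2, -1.29 (SE 0.42, edgeR adjusted p = 0.848). Without NECA replicate 1 it was -3.02 (SE 1.53). NECA replicate 2 had 2 Cym counts, against 845 to 5134 in the other libraries. The mean CPM of the other 5 was 1512 times that of NECA replicate 2, with a 95% exact Poisson interval of 419 to 12487 for the 2 counts alone (counting error only, since PCR copies of 1 molecule were counted as separate reads). Stomach markers were scarce in every library: of the 11 in the files, 5 (Atp4b, Gif, Gkn2, Muc5ac and Tff1) were at 0 in all libraries and 2 more had at most 3 counts in any library, and the summed level of the list was 4.13 to 7.76 CPM in DMSO and 0.0498 to 11.2 CPM in NECA. The most abundant of them, the pepsinogen gene Pga5, was counted 42, 66 and 49 times in the DMSO group against 149, 0 and 60 times in the NECA group. Lipf, the gastric lipase gene, was counted 55, 42 and 5 times in DMSO and 7, 0 and 1 times in NECA, overlapping between the groups and, like Cym, mostly lower in NECA. The part of stomach tissue in the Cym level was not tested. Cym alone was at 146 to 286 CPM in the DMSO libraries.

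Among the peptidases, Mme had its lowest value in NECA replicate 2 and the other 3 did not. Mme encodes neprilysin, a zinc endopeptidase that cuts peptides inside the chain and is also found on blood cell precursors and stromal cells. It lies on chromosome 3, 63241537 to 63386030, plus strand, with up to 23 exons. Mme had 62.1, 40.7 and 26.1 FPKM over the DMSO libraries and 30.5, 0.120 and 16.6 FPKM over the NECA libraries. NECA replicate 1 lay above DMSO replicate 3, so the groups overlapped. NECA replicate 2 had 28 counts, and the mean CPM of the other libraries was 293 times its level (95% exact Poisson interval 203 to 442, counting error only). The log2 fold change was -1.47 (SE 1.26, edgeR adjusted p = 0.754), and -0.89 (SE 0.39, edgeR adjusted p = 0.848) without that library. Without NECA replicate 1 it was -2.38. Markers of other cells were also lower in NECA in 8 of 8 B cell genes (median log2 fold change -2.46, none called; summed level 22.9 to 83.7 CPM in DMSO and 10.2 to 21.4 CPM in NECA) and 8 of 8 macrophage genes (median -0.45; 528 to 674 CPM and 280 to 624 CPM). Of the 10 smooth muscle genes, 10 were lower (median -0.53), and of 8 fibroblast genes 5 were lower and 3 higher (median -0.14). In the summed level of the B cell genes NECA replicate 2 was the highest NECA library, whereas in Mme it was the lowest. Among the single B cell genes, NECA replicate 3 was higher in Cd79b (1.78 against 1.74 CPM) and Cd22 (3.44 against 2.04 CPM). In the rest of that list NECA replicate 2 was the highest NECA library. No gene of these lists was at 0 in all libraries, and the part of such cells in the Mme level was not tested.

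Enpep encodes aminopeptidase A, which removes acidic residues from the start of a peptide, and is carried by enterocytes and by cells of small vessels. It lies on chromosome 3, 129269175 to 129332720, minus strand, with up to 20 exons. Enpep had 17.7, 14.8 and 86.9 FPKM in the DMSO group against 51.6, 236 and 85.3 FPKM in the NECA group. DMSO replicate 3 was 4.91 times DMSO replicate 1 (CPM) and exceeded NECA replicates 1 and 3, so the groups overlapped, and the highest DMSO library was 5.81 times the lowest. Its log2 fold change of NECA over DMSO was 1.64 (SE 0.81, edgeR adjusted p = 0.738). Leaving out 1 library moved it between 0.77 (SE 0.70, without NECA replicate 2) and 2.93 (SE 0.69, edgeR adjusted p = 0.640, without DMSO replicate 3).

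Anpep encodes aminopeptidase N, the most abundant peptidase of the 4, which removes neutral residues and is also carried by myeloid cells. Its gene is on chromosome 7, 79821803 to 79861059, minus strand, with up to 21 exons. Anpep had 289, 203 and 371 FPKM in DMSO and 369, 403 and 369 FPKM in NECA. The NECA libraries were close to each other and to DMSO replicate 3, whereas DMSO replicates 1 and 2 were lower. NECA over DMSO gave a log2 fold change of 0.39 (SE 0.27, edgeR adjusted p = 0.738) and 0.34 (SE 0.24) without NECA replicate 2. Leaving out DMSO replicate 2 gave 0.20 and leaving out DMSO replicate 3 gave 0.61.

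Dpp4 encodes dipeptidyl peptidase 4, which removes pairs of residues where proline or alanine is second, cuts incretin hormones and is carried by T cells as well. It lies on chromosome 2, 62330073 to 62412231, minus strand, with up to 26 exons. Dpp4 had 24.7, 19.0 and 34.4 FPKM over the DMSO libraries and 23.3, 31.7 and 34.0 FPKM over the NECA libraries. It varied least of the 10 genes over the 6 libraries, the highest CPM being 1.79 times the lowest, and its log2 fold change was 0.17 (SE 0.25, edgeR adjusted p = 0.839), or 0.12 (SE 0.26) without NECA replicate 2. The T cell list, whose cells also carry Dpp4, was at 62.0 to 112 CPM in DMSO and 15.4 to 70.2 CPM in NECA, summed over 8 genes. Outside NECA replicate 2 that sum was mostly Trac, which was at 64.1, 92.2 and 45.3 CPM in DMSO and 59.1, 1.74 and 37.4 CPM in NECA. All 8 genes were lower in NECA (median log2 fold change -0.62, none called). The part of T cells in the Dpp4 level was not tested.

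Alpi encodes intestinal alkaline phosphatase, which removes phosphate from bacterial lipopolysaccharide and from nucleotides at the brush border. The gene is on chromosome 1, 87098002 to 87101606, minus strand, with 11 exons. Alpi had 1095, 1236 and 1123 FPKM in the DMSO group against 1144, 398 and 1052 FPKM in the NECA group. The 5 libraries other than NECA replicate 2 lay close together, the highest CPM being 1.20 times the lowest. The log2 fold change was -0.43 (SE 0.39, edgeR adjusted p = 0.761), and -0.09 (SE 0.16) without that library. It was -0.68 (SE 0.44) without NECA replicate 1. The related phosphatase genes Akp3 and Alppl2 had at most 64 and 24 counts in any library, against 18839 to 46301 for Alpi.

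The balance between enzymes of like function differed between libraries. Lct FPKM was 21.1, 27.4 and 16.8 times that of Mgam in DMSO and 16.2, 0.174 and 12.9 times in NECA, so that Mgam exceeded Lct in NECA replicate 2 and in no other library. Anpep FPKM was 16.4, 13.8 and 4.27 times that of Enpep over the DMSO libraries and 7.16, 1.71 and 4.33 times over the NECA libraries. DMSO replicate 3 and NECA replicate 3 were alike in that second ratio, and DMSO replicates 1 and 2 were the highest.

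**Figure D3:**
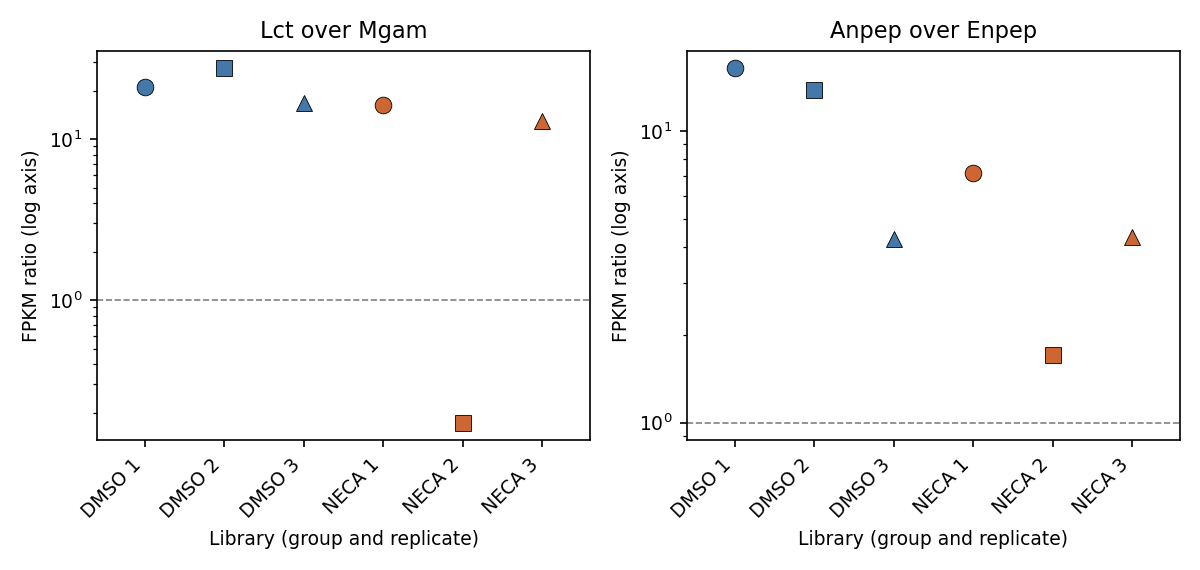
Ratio of deposited FPKM values (log axis) within each library for Lct over Mgam (left) and Anpep over Enpep (right), with a dashed line at equal levels. Lct over Mgam lies between 12.9 and 27.4 in 5 libraries and at 0.174 in NECA replicate 2, and Anpep over Enpep takes intermediate values in DMSO replicate 3 and NECA replicates 1 and 3.

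Seen across all 6 libraries, the order of several members followed the position score. Mgam ran exactly opposite to the score (Spearman's rho -1 over 6 libraries and -1 over the 5 without NECA replicate 2). Enpep and Anpep each had a rho of -0.94 (-0.90 without that library), Dpp4 -0.71 (-0.80) and Mme 0.94 (0.90). Cym had a rho of 0.89 (0.80), and Treh and Alpi 0.83 (0.70 each). Lct had a rho of 0.26 and -0.30 without NECA replicate 2, and Sis -0.43 and 0.00. Thus 8 of the 10 genes kept the sign of the relation without that library at a rho of 0.70 or more in size, as 21.8% of all genes tested did, and Lct and Sis did not. The cut of 0.70 equals the value of Treh and Alpi over 5 libraries, so a higher cut would count fewer members. The share of all genes at a higher cut was not computed. The rho values describe 6 libraries that share depth, composition and treatment, and carry no p. Enpep and Anpep also ranked the libraries identically (rho 1). The epithelial mean was high in the same libraries as Enpep and Anpep (Pearson's r 0.97 and 0.93, and 0.95 and 0.98 without NECA replicate 2). On ranks that relation was weaker (Spearman's rho 0.83 each, and 0.70 each without that library). Position and epithelial level thus moved together only in part. NECA replicate 1 had an epithelial mean of 9.48 at a score of 3.22, and DMSO replicate 3 had 9.48 at a score of 0.92. The position score was 3.54 ± 2.28 in DMSO and -0.29 ± 3.86 in NECA (SD, n = 3 per group), with overlap (exact permutation test, two-sided, p = 0.2).

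Without a covariate, 4 members (Mgam, Cym, Mme and Enpep) had a log2 fold change of at least 1 in size, as 3.56% of all genes tested did. Without NECA replicate 2, 1 member had, Cym, beside 3.54% of all genes tested. With the position score as a covariate in edgeR and all 6 libraries, 1 member had, again Cym, beside 3.02% of all genes, so that the count was the same in both. With the covariate that of Enpep was 0.32 (SE 0.35), of Mgam 0.09 (SE 0.30), of Mme -0.31 (SE 0.89), of Treh 0.30 (SE 0.28) and of Cym -1.003 (SE 0.91), each with an adjusted p of 0.9997 in edgeR. The covariate was built from these libraries and its lowest value is that of NECA replicate 2, so the share of a difference that belongs to position, to treatment or to that library cannot be told apart.

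**Figure D4:**
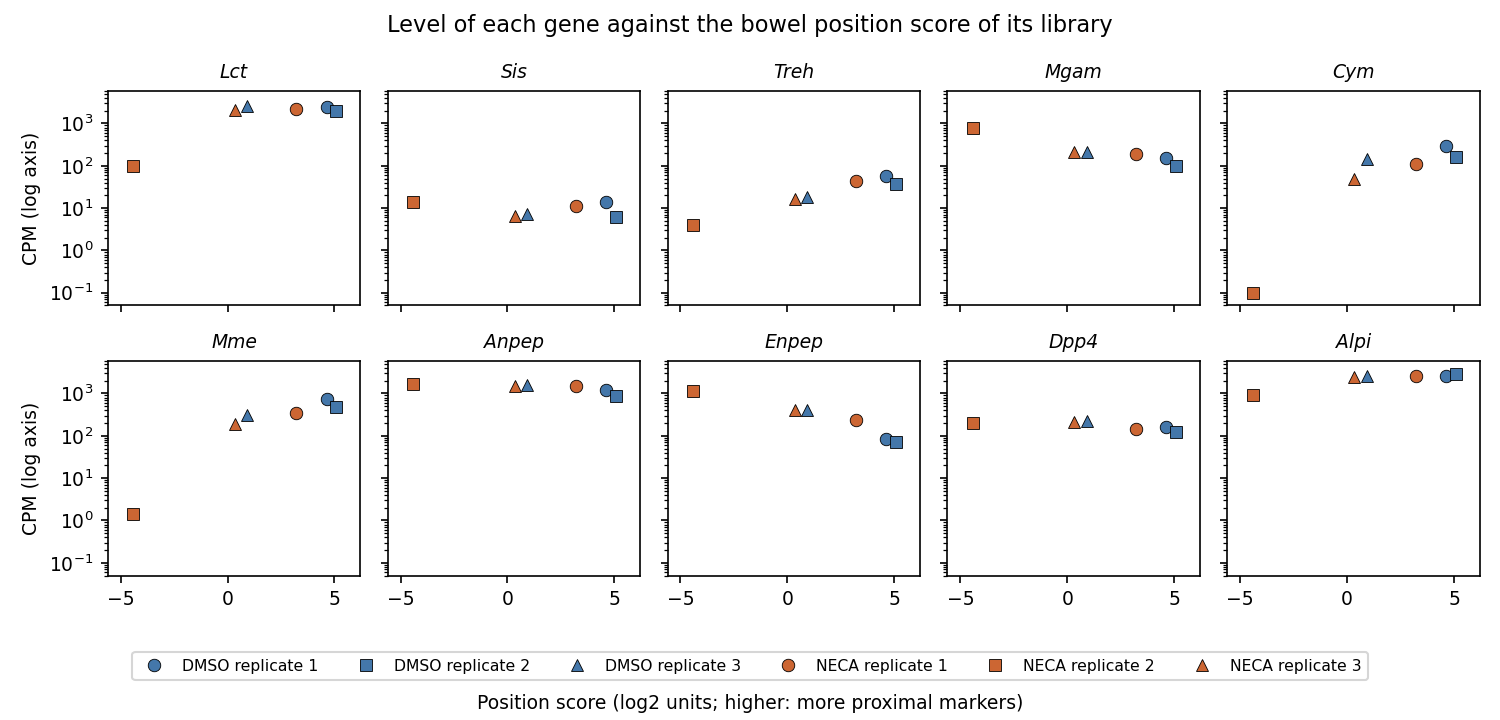
TMM-normalised CPM of each gene (vertical, log axis, the same in all panels) against the position score of the library (horizontal, log2 units), with DMSO libraries in blue and NECA libraries in orange. Mgam and Enpep are highest in NECA replicate 2 at a score of -4.42, Mme and Treh are lower in the 3 libraries with scores under 1 than in the other 3, and Lct is level in the 5 libraries with scores above 0.

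Relative to the epithelial mean, which allows for a varying share of epithelium, 3 members did not overlap between the groups, all lower in NECA: Lct, Cym and Alpi. Over all genes tested the groups did not overlap in 20.6% on this scale, and in 19.7% with NECA lower. The reference itself was higher in NECA in 10 of its 10 genes (median log2 fold change 0.31, none called), which lowers every gene measured against it. Lct was 1.94 ± 0.0927 log2 units above the epithelial mean in DMSO and 0.00 ± 2.73 in NECA (SD, n = 3 per group), the single NECA libraries being at 1.65, -3.15 and 1.52. Alpi was at 2.17 ± 0.296 and 1.26 ± 1.001, with NECA replicate 1 (1.889) just under DMSO replicate 3 (1.890). Cym was at -1.69 ± 0.625 and -6.44 ± 5.52. The difference of NECA from DMSO was -1.93 for Lct, -0.90 for Alpi and -4.75 for Cym, and -0.36, -0.33 and -1.58 without NECA replicate 2. In each of the 3 the exact permutation test (two-sided, 3 against 3) gave its smallest possible value, p = 0.1, and an adjusted p of 0.367 over 11 tests, so that 0 passed.

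Promoter sequences are shown for Lct and Cym, which were low in NECA replicate 2, and for Mgam and Enpep, which were high there, so that letters upstream of genes with opposite patterns can be compared. CDX and GATA proteins are transcription factors of intestinal epithelium, and sites for them are well described upstream of Lct and Sis. Each line gives the 150 bases before the RefSeq start (GRCm38.p6), read 5′ to 3′ on the gene's strand: chr1:128328319-128328468 (minus) for Lct, chr3:107221733-107221882 (minus) for Cym, chr6:40628681-40628830 (plus) for Mgam and chr3:129332750-129332899 (minus) for Enpep. Capitals mark a core bound by CDX proteins, TTTAT, and a motif of the GATA family, whose letters are AGATAA, each on either strand; they overlap at 1 place in Lct.
Lct: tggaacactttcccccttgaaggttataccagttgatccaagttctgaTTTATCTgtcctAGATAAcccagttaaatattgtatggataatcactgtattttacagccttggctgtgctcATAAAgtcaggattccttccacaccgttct
Cym: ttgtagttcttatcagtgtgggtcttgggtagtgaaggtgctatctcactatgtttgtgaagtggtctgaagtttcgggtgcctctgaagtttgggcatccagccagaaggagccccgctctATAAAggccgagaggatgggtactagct
Mgam: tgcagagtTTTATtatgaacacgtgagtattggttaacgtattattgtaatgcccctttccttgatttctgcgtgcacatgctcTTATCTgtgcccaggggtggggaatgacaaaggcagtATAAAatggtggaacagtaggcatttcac
Enpep: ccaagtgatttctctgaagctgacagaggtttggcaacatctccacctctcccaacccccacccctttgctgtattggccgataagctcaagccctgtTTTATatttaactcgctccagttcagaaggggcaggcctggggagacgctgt
Lct held 2 matches to TTTAT and 2 to AGATAA, Mgam 2 and 1, and Cym and Enpep 1 and 0. Only these exact letters were sought, so a count of 0 does not exclude a near variant of the motif. The match of Lct, Mgam and Cym nearest the start (30, 29 and 28 bases before it) is ATAAA on the printed strand, letters that a TATA box can also hold. Of the 10 genes, all matched by symbol with 12 promoters in all, 6 had a promoter with TTTAT, which 24.1% of 32851 promoters of the same length hold, and 3 had AGATAA (5.65%). Among those 6, the only match of Cym lies 28 bases before the start and that of Alpi 33 bases, so either may belong to a TATA box. The motifs occurred in genes of both patterns, and a match is a description of letters only.

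Other enzymes of the brush border also differed between libraries. Of 20 in the files 19 were tested, with 8 higher and 11 lower in NECA and a median log2 fold change of -0.19, and 0 passed. Without NECA replicate 2, 13 were higher and 6 lower, with a median of 0.10. The 4 with the smallest p were Tmprss15, Naaladl1, Xpnpep2 and Naalad2. Tmprss15 encodes enteropeptidase, the duodenal protease that activates trypsinogen, and had 391, 257 and 4 counts in the DMSO group against 35, 1 and 4 in the NECA group (log2 fold change -4.01, SE 1.46, edgeR adjusted p = 0.738; -3.41, SE 1.46 without NECA replicate 2). It was high in DMSO replicates 1 and 2, the 2 libraries with the highest position scores. Naaladl1, a peptidase of the distal small bowel, had 32.8, 39.1 and 356 CPM in DMSO and 387, 1323 and 628 CPM in NECA, without overlap (2.45, SE 0.96; 1.83, SE 0.92 without NECA replicate 2). Xpnpep2, an aminopeptidase acting before proline, differed by 0.73 (SE 0.32) and, without that library, by 0.32 (SE 0.23). Naalad2 differed by -0.58 (SE 0.36) and -0.77 (SE 0.40). Ace, the angiotensin-converting peptidase, named after its values were seen, had 1706, 1591 and 2563 CPM in DMSO and 2273, 253 and 2190 CPM in NECA, a low value in the same library as Lct (-0.31, SE 0.69; 0.20, SE 0.23 without it). Of the 19 tested genes of this list, NECA replicate 2 was the lowest library in 11 and the highest in 4, beside 27.9% and 30.1% of all genes tested.

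Genes of the later steps, lysosomal and cytosolic digestion and uptake of sugars and peptides, numbered 14, all tested, with 7 higher and 7 lower, a median of -0.04 and 0 past the threshold. Without NECA replicate 2, 10 were higher and 4 lower, with a median of 0.14. Cndp2, a cytosolic dipeptidase, had 176, 224 and 415 CPM in DMSO and 359, 815 and 559 CPM in NECA (1.09, SE 0.40, edgeR adjusted p = 0.738; 0.76, SE 0.35 without NECA replicate 2), and NECA replicate 1 overlapped with DMSO replicate 3. Lap3 and Pepd, other cytosolic peptidases, differed by 0.52 (SE 0.23) and 0.32 (SE 0.15), and by 0.34 (SE 0.20) and 0.32 (SE 0.15) without that library. Slc15a1, the carrier that takes up the peptides released, differed by -0.68 (SE 0.51), or -0.24 (SE 0.18) without NECA replicate 2, and was at 15.3 CPM in NECA replicate 2 against 67.6 to 102 CPM elsewhere.

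Of 12 genes of the suckling enterocyte, 6 were higher and 6 lower, with a median of 0.01 and 0 at an unadjusted p under 0.05. Without NECA replicate 2, 9 were higher and 3 lower, with a median of 0.17. Clu (-0.95, SE 0.52), Cps1 (0.59, SE 0.35), the endocytic receptor Lrp2 (0.91, SE 0.68) and Amn (0.30, SE 0.26), the partner of the receptor cubilin, had the smallest p. Without that library Lrp2 was at 0.20 (SE 0.63), Clu at -0.97 (SE 0.59), Cps1 at 0.51 (SE 0.34) and Amn at 0.38 (SE 0.25). Of 20 regulators of enterocyte genes, 13 were higher and 7 lower, with a median of 0.05, and 0 passed (16 higher and 4 lower without NECA replicate 2, median 0.07). Cebpa, a transcription factor of differentiated cells, was at 144, 86.6 and 162 CPM in DMSO and 207, 226 and 174 CPM in NECA (0.63, SE 0.25; 0.54, SE 0.26 without NECA replicate 2). Cdx1 (0.63, SE 0.26) had 180.1, 138 and 185 CPM in DMSO and 199, 361 and 222 CPM in NECA, also without overlap, and its difference was 0.33 (SE 0.17) without NECA replicate 2. Klf5 differed by 0.43 (SE 0.19), or 0.33 (SE 0.19) without that library. Gata4, a factor of the proximal bowel that activates Lct, named after its values were seen and 1 of the genes of the position score, was at 162, 137 and 139 CPM in DMSO and 145, 30.4 and 135 CPM in NECA (-0.50, SE 0.49; -0.06, SE 0.14 without NECA replicate 2). Cdx2, also named after its values were seen, went the other way, at 211, 199 and 243 CPM in DMSO and 232, 326 and 215 CPM in NECA (0.25, SE 0.21, and 0.04, SE 0.14 without NECA replicate 2). NECA replicate 2 was the lowest library in 8 of the 20 regulators and the highest in 7, beside 27.9% and 30.1% of all genes tested.

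The genes whose log2 CPM followed a member most closely over the 6 libraries were sought among 9711 named genes with a mean of at least 10 CPM. For Lct they were Dnase1l1, Slc5a9 and Lztr1 (Pearson's r 0.999 each, and 0.888, 0.824 and 0.846 without NECA replicate 2). Slc5a9 encodes a sugar carrier and was at 41.1, 38.1 and 39.8 CPM in DMSO and 39.4, 13.4 and 37.9 CPM in NECA, so the likeness with Lct rests mostly on NECA replicate 2. For Mgam they were Gmds, Cnksr3 and Tcp1 (0.999 each, and 0.995 or 0.996 without that library). For Cym they were Acat1, Emcn and Ncoa7 (0.998 or 0.999, and 0.975 to 0.989 without it), and for Treh Dlat, Ppp1r13b and Ireb2 (0.993 or 0.994, and 0.975 or 0.976). For Sis they were Zbtb14, Taok2 and Josd1 (0.965 to 0.972, and 0.966 to 0.973). With 6 points and 9711 genes such values are a description of these libraries.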

How the data were processed

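The authors deposited 1 file per library with raw counts per gene and an FPKM value beside each count, per the file headers. The submitters' processing notes name HISAT, StringTie and edgeR and the builds mm10 and GRCm38; the sources used here do not give versions, strandedness or the rule for multi-mapped reads. Complementary DNA was amplified by PCR without stated molecular identifiers, per the labels' protocols. Deposited FPKM values equalled count over 1 value per gene and 1 factor per library (largest relative deviation 4.2e-09 over 11776 genes); the factor of NECA replicate 2 relative to DMSO replicate 1 was 1.12, its total 1.01.

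Counts were filtered (filterByExpr, minimum count 10, minimum total 15, 15847 genes kept), scaled with TMM and tested with edgeR 4.0.16 (quasi-likelihood, R 4.3.3, two-sided, Benjamini-Hochberg over all genes, threshold 0.05). An SE is the fold change over the root of its F statistic. Log2 levels and scores used 0.5 added to each count. Single values were tested by exact permutation (scipy 1.17.1). Alternatives were DESeq2 (1.42.0) size factors or test, no filter, a filter of 5 CPM in 3 libraries, a replicate block, each library left out, and position or epithelial score as covariate; DESeq2 without NECA replicate 2 was added after seeing the data. In simulated counts for NECA against DMSO over 15847 genes, the test called 8% of 2-fold and 75% of 4-fold changed genes and 5 unchanged ones. The counts were drawn independently for each gene, with no library set apart like NECA replicate 2. These shares therefore need not hold for the members.

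Named genes were the 10 members, the 4 of smallest p in each of 4 lists, and the 3 closest in pattern to Lct, Sis, Treh, Mgam and Cym among genes not named as predicted. A gene that this rule names is not reported here. Members and lists were chosen with earlier results of these data known. Coordinates are from GENCODE M21 (GRCm38), promoters from RefSeq (GRCm38.p6).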

Additional observations from a re-analysis of the deposited data

How the results depend on the processing

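Adjusted over all genes, 0 of the 10 members were called under each of the alternatives run, replicate block included (0 members and 0 genes called with the block; smallest adjusted p of any member 0.637, without NECA replicate 1). The same-numbered libraries did not deviate together (correlations of 0.006, -0.183 and -0.013). With deviations from means of 3 libraries, this check cannot decide whether the number is a pairing. DMSO replicate 2 correlated best with NECA replicate 1 and DMSO replicate 3 with NECA replicate 2. Over all genes edgeR called 0 in the fit reported and with each library left out (0 to 0), 2 without a filter, and DESeq2 called 9, or 30 without NECA replicate 2. With the block the fold changes of Lct, Cym and Mme were -1.40, -2.93 and -2.37, over 1.5 times the values reported. Of 140 alternative fold changes of members, 126 kept their direction. With the epithelial score as covariate the sign was opposite for Sis (-0.15), Treh (0.64), Mgam (-0.28), Anpep (-0.0311), Enpep (-0.21), Dpp4 (-0.26) and Alpi (0.0665), and with the position score for Treh (0.30), Dpp4 (-0.14) and Alpi (0.0115). Sis ran from -0.0530 (without NECA replicate 2; -0.0398 in DESeq2) to 0.65 with 1 library left out, being -0.01 without DMSO replicate 2, and Dpp4 from -0.005 (without DMSO replicate 2) to 0.42. The cause was not tested. The log2 ratio of Lct to Sis differed by -2.86 to -0.12 with 1 library left out (-0.12 without NECA replicate 2) and -1.84 in the fit reported and from FPKM values. Relative to epithelial markers 66 of 70 alternatives kept their direction; Anpep was at -0.0639 against Vil1 alone and ran from -0.0286 (without DMSO replicate 2) to 0.180 (without DMSO replicate 3), and Sis from -0.330 (without DMSO replicate 3) to 0.28 (without DMSO replicate 1), being 0.17 without NECA replicate 3. Depth limits Cym and Mme in NECA replicate 2 (2 and 28 counts), and the number of libraries limits the tests.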
